A study of Mus musculus with 6 samples.

Results

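The chemokine ligands and receptors were taken as every gene whose symbol, on the array or in RefSeq, begins with Ccl, Cxcl, Cx3cl, Ccr, Cxcr or Cx3cr and a number. The rule gave 54 genes on 68 of the 41174 probes measured, out of 28919 distinct gene names, and used no measured value. They comprise 36 ligands (20 CC, 15 CXC and 1 CX3C) and 18 receptors, and 12 of the genes have more than 1 probe. The array lists 9 of them under older names, among them Cxcl17 as BC024561, Pf4 as Cxcl4, Ppbp as Cxcl7, Cxcr2 as Il8rb and Cxcr5 as Blr1. The probe of Ccl21c also carries the accessions of its near-identical copies Ccl21a and Ccl21b, so which copy it read is uncertain.

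The ventral prostate of FVB mice was profiled on 6 two-colour arrays, each of which set RNA of 1 group in the red dye (Cy5) against RNA of young wild type mice aged 2.5 months in the green dye (Cy3). The red groups, with 2 arrays each, were the fl26 line, transgenic for 15-LOX2 and 2.5 months old, the svb9 line, transgenic for splice variant b of 15-LOX2 and also 2.5 months old, and old wild type mice of 15 months. 15-LOX2 is a lipoxygenase that oxidises arachidonic acid, and each transgene was represented by 1 line. The promoter of the transgenes and the species of their cDNA are not given in the sources used here. The labels of the samples put 3 mice in a pool, whereas the design text speaks of 6, and this is unsettled. The duplicates are described as independent sets of animals. The sources do not say if 1 young wild type pool served several arrays, and the dyes were never swapped, so that dye and group cannot be told apart in a comparison with young wild type. A dye effect that is the same on every array cancels where a red group is set against another red group. Luminal and ventral prostate markers, Pbsn, Sbp and Krt8 among them, were detected on every array in both channels for 10 or more of 12 genes.

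Chemokines are small secreted proteins that direct the migration of leukocytes by binding to receptors of the G protein-coupled class. Homeostatic ligands such as Cxcl12 and Cxcl14 are made continuously by stroma and epithelium, whereas inflammatory ligands such as Ccl20, Cxcl1, Cxcl2 and Ccl2 are switched on by cytokines and microbial products, largely through the transcription factor NF-kappaB. Most of the receptors sit on leukocytes, which are a minor part of the cells of a normal prostate.

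Because the largest log2 ratios in the family belonged to Ccl20, Cxcl2, Cxcl14 and Ccl6, the 250 bases before the start of each of these genes are shown, from RefSeq on GRCm38.p6, 5′ to 3′ on the strand of the gene. They lie at chr1:83116516-83116765 (plus strand) for Ccl20, chr5:90903649-90903898 (plus strand) for Cxcl2, chr13:56296552-56296801 (minus strand) for Cxcl14, chr11:83593088-83593337 (minus strand) for Ccl6. Capitals mark a match to the NF-kappaB consensus, searched by that name on both strands.
Ccl20: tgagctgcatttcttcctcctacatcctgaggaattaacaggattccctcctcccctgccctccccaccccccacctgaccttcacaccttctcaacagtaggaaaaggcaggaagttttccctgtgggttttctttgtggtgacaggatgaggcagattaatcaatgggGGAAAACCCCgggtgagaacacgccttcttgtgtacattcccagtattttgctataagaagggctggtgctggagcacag
Cxcl2: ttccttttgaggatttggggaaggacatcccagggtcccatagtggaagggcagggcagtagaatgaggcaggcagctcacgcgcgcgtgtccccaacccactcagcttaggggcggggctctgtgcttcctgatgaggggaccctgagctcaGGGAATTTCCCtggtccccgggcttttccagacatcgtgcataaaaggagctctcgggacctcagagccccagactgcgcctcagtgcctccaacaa
Cxcl14: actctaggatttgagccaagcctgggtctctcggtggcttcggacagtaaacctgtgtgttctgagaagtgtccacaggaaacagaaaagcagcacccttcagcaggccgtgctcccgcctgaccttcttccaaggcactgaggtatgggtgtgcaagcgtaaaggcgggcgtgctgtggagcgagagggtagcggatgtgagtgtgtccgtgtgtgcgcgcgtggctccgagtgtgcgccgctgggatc
Ccl6: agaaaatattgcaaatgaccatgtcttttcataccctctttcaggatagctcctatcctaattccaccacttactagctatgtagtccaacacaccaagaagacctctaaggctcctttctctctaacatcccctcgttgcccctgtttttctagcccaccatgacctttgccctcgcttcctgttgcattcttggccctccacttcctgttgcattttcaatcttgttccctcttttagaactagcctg
The Ccl20 promoter holds 1 match, on the opposite strand, from base -80 to base -71 before the start. The Cxcl2 promoter holds 2 matches that overlap, from -97 to -88 on the strand of the gene and from -96 to -87 on the opposite strand. These letters were not found in the windows of Cxcl14 and Ccl6. Of the 32851 promoters in the table, 3.90% hold a match, and so do 18.6% of the 43 promoters of member genes, which belong to 39 genes, 8 of them with a match. A match describes the sequence and does not show binding.

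Signal in the red channel differed widely between arrays, and this sets which members could be measured. A probe was counted as well above background by the flag of the scanner software. In red, 38 and 22 of the 54 members were well above background on fl26 arrays 1 and 2, 41 and 17 on svb9 arrays 1 and 2, and 3 and 14 on old arrays 1 and 2. In green, which held young wild type RNA throughout, the count was 41 and 36 on the fl26 arrays, 41 and 37 on the svb9 arrays, and 32 and 36 on the old arrays. Over all probes the red share was 65.9% and 42.8% for fl26, 67.6% and 35.5% for svb9, and 7.82% and 33.0% for old wild type. Old array 1 therefore stood apart, with Ccl20, Cx3cl1 and Cxcl2 the 3 members detected in red, and the counts and leading values of the old group are given with and without it.

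**Figure D1:**
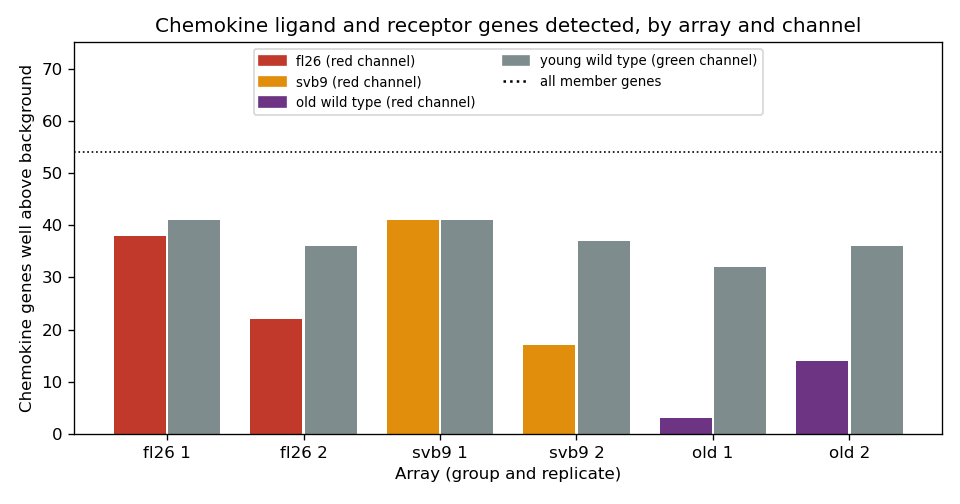
Number of chemokine ligand and receptor genes well above background on each array, in the red channel (fl26, red bars; svb9, orange; old wild type, purple) and in the green channel (young wild type, grey), with the dotted line at all 54 genes. The red count lies between 3 on old array 1 and 41 on svb9 array 1, whereas the green count lies between 32 and 41.

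In young wild type prostate, 29 members were well above background on all 6 arrays, of which 22 were ligands and 7 were receptors. Only Ccl20, which attracts T helper 17 cells and immature dendritic cells through Ccr6, and Cx3cl1, a membrane-anchored ligand that also acts as an adhesion molecule, were detected in both channels on all 6 arrays. A further group of ligands was detected in green on all 6 arrays and in red on 5, namely Ccl5, Ccl6, Ccl9, Ccl11, Ccl21c, Ccl25, Cxcl12, Cxcl13, Cxcl14, Cxcl16 and Cxcl17, which brings this class to 13 genes. Ccr6 was the 1 receptor with red signal well above background on 4 or more arrays. In neither channel of any array were 8 genes well above background: the ligands Ccl22, Cxcl3, Cxcl5 and Cxcl11 and the receptors Ccr1, Ccr10, Cxcr1 and Cxcr5.

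Members were tested where 1 channel was well above background on both arrays of a group, which 38 genes passed (26 ligands and 12 receptors), on the brightest probe of each gene. Not tested were 10 ligands (Ccl1, Ccl3, Ccl4, Ccl7, Ccl22, Ccl28, Cxcl3, Cxcl5, Cxcl9 and Cxcl11) and 6 receptors (Ccr1, Ccr7, Ccr10, Cxcr1, Cxcr2 and Cxcr5). Among the untested ligands are the macrophage inflammatory proteins Ccl3 and Ccl4 and the interferon-induced ligands Cxcl9 and Cxcl11. Each value is the log2 ratio of a red group to the young wild type RNA beside it on the array, and intensities are normalised, in arbitrary units, and comparable within a probe only. The RNA came from whole tissue, where fewer cells of a type and less RNA per cell cannot be told apart.

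The first comparison asked which chemokine genes differed between fl26 and young wild type prostate. By limma, 0 of the 38 tested members passed an adjusted p of 0.05, against 0.0503% of all 27860 probes tested. At an unadjusted p under 0.05, 5 members (13.2%) were higher, namely Ccl6, Cxcl13, Cxcl14, Cxcl15 and Ccl21c, against 5.75% of all probes, and 0 were lower, against 4.42%. The median log2 ratio was 0.086 over the members and 2e-04 over all probes. There were 27 members above 0 and 11 below, and 50.1% of all probes lay above 0. On the separate arrays the median of the members was 0.082 on array 1 and 0.029 on array 2.

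Ccl6, a CC ligand of rodents that attracts myeloid cells, had the largest value in fl26. Its intensity was 326 and 515 on fl26 arrays 1 and 2, against 206 and 295 in young wild type on the same arrays. Both fl26 values thus lay above both young wild type values, and the log2 ratio was 0.73 ± 0.096 (limma standard error, n = 2), a 1.66-fold difference with limma's adjusted p = 0.167. That error leaves out the Ccl6 spot of old array 2, which was flagged as an outlier, and the spread is pooled over the groups. With that spot kept, the log2 ratio was 0.73 ± 0.27 (limma adjusted p = 0.503). With the replicate number as a block in the fit, the same log2 ratio had an adjusted p of 0.0223 by limma. In that fit 3.59% of all probes were called.

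Cxcl14, an epithelial and stromal ligand that attracts monocytes and dendritic cell precursors, followed. It had an intensity of 694 and 551 on the fl26 arrays, against 493 and 388 in young wild type. Both arrays gave nearly the same log2 ratio, 0.49 and 0.51, with a mean of 0.50 ± 0.074 (1.41-fold, limma adjusted p = 0.167), and both fl26 values lay above both young wild type values. With the replicate block the adjusted p of limma was 0.0214, and Ccl6 and Cxcl14 were then the 2 of 38 members called.

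The other ligands of fl26 had smaller mean ratios. Cxcl15, known in mice as lungkine, a neutrophil attractant of lung epithelium, had 95.7 and 83.9 on the fl26 arrays, against 71.6 and 71.8 in young wild type, a log2 ratio of 0.32 ± 0.083 (limma adjusted p = 0.309). These intensities were close to the floor of detection, although both fl26 values exceeded both young wild type values. Ccl21c, a ligand that draws naive T cells and dendritic cells to lymphoid tissue through Ccr7, had log2 ratios of 0.51 and 0.26 (mean 0.39 ± 0.11). Cxcl13, the ligand that draws B cells through Cxcr5, had 0.73 on array 1 and 0.081 on array 2, so its mean of 0.40 ± 0.16 came almost wholly from 1 array, and without that array the value was 0.081. Cx3cl1 had 0.083 and 0.41, and Cxcl12, which acts through Cxcr4, had 0.41 and 0.046. The interferon-induced ligand Cxcl10, which acts through Cxcr3, was on the low side on both arrays, at -0.26 and -0.33, as was Ccl5, an attractant of T cells and monocytes, at -0.28 and -0.026. The widest gap between the fl26 arrays was that of Pf4, platelet factor 4, at 0.45 and -0.50, against a median gap of 0.19 over the members.

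Several lists of cell type markers also leaned to 1 side in fl26. All 4 basal epithelial markers were higher, 3 of them at an unadjusted p under 0.05 and 0 at the adjusted threshold, with a median log2 ratio of 0.40 (0.59 on array 1 and 0.29 on array 2) and summed intensities of 4277 and 3569 in fl26, against 2785 and 2716 in young wild type. Of the luminal markers 8 of 12 were lower, with a median of -0.31 on array 1 and 0.28 on array 2. Of the 14 macrophage markers, 11 were higher in fl26 with a median log2 ratio of 0.16, which was 0.32 on array 1 and 0.030 on array 2, and 0 passed the limma test. Their summed intensity was 3853 and 3373 in fl26, against 2401 and 2857 in young wild type, and none of the 14 was undetected in young wild type. Lyz2, the lysozyme of macrophages, made up 1973 and 1818 of the fl26 sums, against 914.5 and 1316 in young wild type. Its log2 ratios were 1.11 and 0.47, and Csf1r, the receptor of a macrophage growth factor, had 0.28 and 0.24. On array 2 Adgre1, Cd68, C1qa, Itgam, Mrc1 and Cd163 lay below 0, and the other macrophage markers above it. Of the fibroblast markers, 7 of 8 were higher, with a median of 0.67 on array 1 and -0.12 on array 2, and summed intensities of 8519 and 7113 in fl26 against 6187 and 7902 in young wild type. The part of these cells in the values of Ccl6, Cxcl14, Cxcl12 and Cxcl13 was not tested. Of the 5 lung epithelial markers, 2 passed the filter (log2 ratios of -0.0015 for Sftpd and -0.0058 for Scgb1a1), and the summed intensity of all 5 was 317 and 315 in fl26, against 322 and 313 in young wild type, beside the Cxcl15 value.

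**Figure D2:**
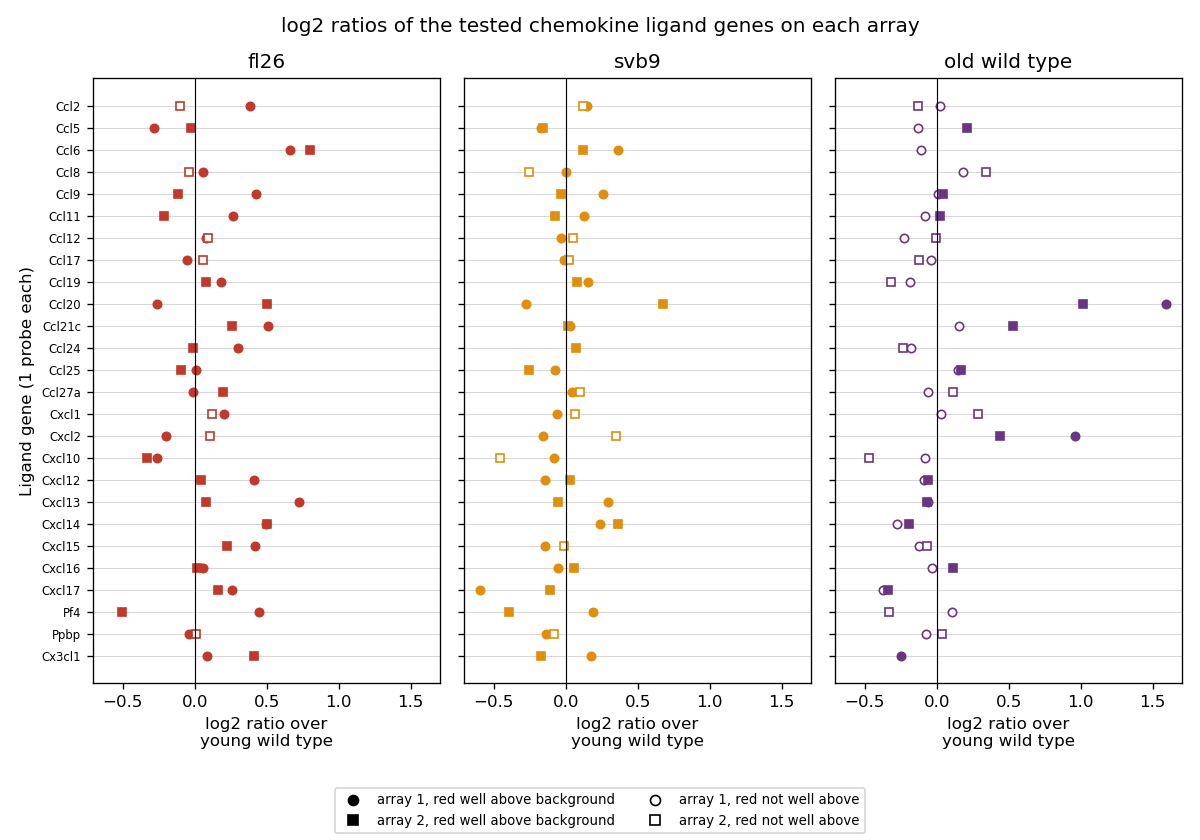
Log2 ratio over young wild type of the 26 tested chemokine ligand genes on each array, by group (fl26, svb9, old wild type from left to right), with circles for array 1, squares for array 2, and open symbols where red was not well above background. Ccl20 and Cxcl2 lie to the right on both old arrays, and Ccl6 and Cxcl14 on both fl26 arrays.

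The second comparison set svb9, which carries the splice variant, against young wild type. Here 0 of 38 members passed the limma test, against 0% of the probes tested, and the median of the members was 5e-04. At an unadjusted p under 0.05, Ccl6 and Cxcl14 were higher (5.26% of members, against 2.12% of all probes) and Cxcl17 was lower (2.63% of members, against 2.33%). Above 0 were 20 members and below it 18, and 48.7% of all probes lay above 0.

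The 2 ligands that led in fl26 were also above young wild type in svb9, by less. Cxcl14 had 593 and 526 on svb9 arrays 1 and 2, against 501 and 409 in young wild type, with log2 ratios of 0.24 and 0.36 (mean 0.30 ± 0.074, limma adjusted p = 0.980). Both svb9 values lay above both young wild type values. Ccl6 had 261 and 310 in svb9, against 202 and 285, and its 2 ratios, 0.36 and 0.12, averaged 0.24 ± 0.096 (± 0.27 with the flagged spot of old array 2 kept). The svb9 and young wild type values of Ccl6 overlapped. The fl26 and svb9 ratios have young wild type RNA in common as their denominator, so the likeness of their directions is not independent.

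Cxcl17, a ligand of mucosal epithelia that attracts monocytes and dendritic cells, had the lowest value of svb9. Its intensity was 124 and 162 in svb9, against 187 and 174 in young wild type, and the log2 ratio was -0.60 on array 1 and -0.11 on array 2 (mean -0.35 ± 0.12, limma adjusted p = 0.980). Both svb9 values lay below both young wild type values. Ccl5 (-0.17 ± 0.11) and Ccl25, a thymic and intestinal ligand acting through Ccr9 (-0.17 ± 0.080), were lower on both arrays, and Ccl19, the other ligand of Ccr7, was higher at 0.16 and 0.078. The gap between arrays was widest for Ccl20, with -0.28 and 0.68, against a median gap of 0.12. Macrophage markers showed a median of 0.011 in svb9, with 8 of 14 above 0.

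The third comparison asked what differed between old and young wild type prostate. Of 38 members, 0 passed the limma test, against 0% of the 27626 probes tested. At an unadjusted p under 0.05, Ccl8, Ccl20, Ccl21c and Cxcl2 were higher (10.5% of members, against 6.85% of all probes) and Ccl19, Ccr2, Cxcl14 and Cxcl17 were lower (10.5%, against 4.58%). The median was -0.058 over the members and -0.019 over all probes. There were 15 members above 0 and 23 below, and 43.9% of all probes lay above 0. Without old array 1 the median was -0.034, and of the 36 members then measured Ccl8, Ccl21c and Cxcl1 were higher at an unadjusted p under 0.05 (8.33%, against 7.21% of all probes) and Ccl19, Ccr2 and Cxcl10 lower (8.33%, against 5.86%), so that Ccl20, Cxcl2, Cxcl14 and Cxcl17 no longer passed.

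Ccl20 gave the largest value of the family in any comparison. It had 277 and 197 on old arrays 1 and 2, against 91.7 and 97.5 in young wild type, so the groups were far apart on both arrays. The log2 ratio was 1.59 and 1.02, with a mean of 1.31 ± 0.28 (2.47-fold, limma adjusted p = 0.211). Without old array 1 it was 1.02 (limma adjusted p = 0.384). With the replicate block the adjusted p was 0.0330 by limma, and Ccl20 was the 1 member of 38 called, where 4.38% of all probes were. Cxcl2, a neutrophil attractant that acts through Cxcr2, had 148 and 109 in old wild type, against 76.2 and 80.6 in young wild type, with log2 ratios of 0.96 and 0.44 (mean 0.70 ± 0.17, limma adjusted p = 0.238). Without old array 1 its value was 0.44.

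The uncorrected red signal of these 2 probes hardly varied, whichever RNA was on the array. The red spot mean of Ccl20 was 157 and 129 on the fl26 arrays, 147 and 129 on the svb9 arrays, and 126 and 146 on the old arrays, so the highest exceeded the lowest 1.25-fold. For Cxcl2 the red spot mean lay between 96.2 and 115, a 1.20-fold range. In contrast the red spot mean of Cxcl14 ran from 89.0 on old array 1 to 2599 on fl26 array 1, 29.2-fold, and that of Cx3cl1 from 107 to 5128, 47.8-fold. The median range was 2.52-fold over the members and 3.30-fold over all tested probes, and a range narrower than that of Ccl20 was found in 0.370% of tested probes and narrower than that of Cxcl2 in 0.147%. In green the range was 1.40-fold for Ccl20 and 1.32-fold for Cxcl2, near the median of 1.39-fold. The uncorrected red signal of both probes on the old arrays thus lay at or below the highest value on the transgenic arrays. The ratio of Ccl20 followed the share of probes well above background in red, being 1.59 on old array 1 (7.82% of probes), 1.02 on old array 2 (33.0%), 0.68 on svb9 array 2 (35.5%), 0.50 on fl26 array 2 (42.8%), -0.26 on fl26 array 1 (65.9%) and -0.28 on svb9 array 1 (67.6%). In the same order of arrays Cxcl2 had 0.96, 0.44, 0.35, 0.11, -0.20 and -0.16, so that each array with fewer detected probes had the higher ratio for both genes, apart from the last 2 values of Cxcl2. The part of weak red signal in these ratios was not tested.

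**Figure D3:**
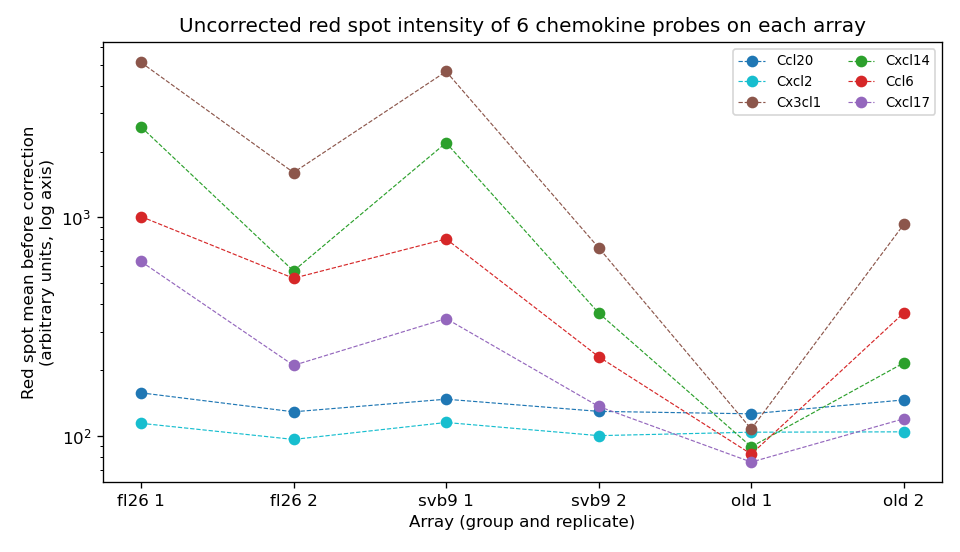
Red spot mean before background correction and normalisation (arbitrary units, log axis) of 6 chemokine probes on each array, with dashed lines that only join the points of a probe. Ccl20 and Cxcl2 stay between 96.2 and 157 on all 6 arrays, whereas Cx3cl1 falls to 107 on old array 1, against 5128 on fl26 array 1.

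Several receptors and relatives of these ligands were not well above background in red on the old arrays, which held for most members. Red was so on old arrays 1 and 2 for 3 and 14 of 54 members, and for 7.82% and 33.0% of all probes. Cxcl1, which shares the receptor Cxcr2, was well above background in red on neither old array, Cxcl3 and Cxcl5 were detected nowhere, and Cxcr2 itself was detected in green on 1 array. Ccl2, the monocyte attractant that acts through Ccr2, and Ccr6, the receptor of Ccl20, were detected in green on all 6 arrays and in red on neither old array. Neutrophil and mast cell markers had a median of -0.0026 in old wild type over 7 measured genes, 3 of them above 0. Over the 10 probes of that list, passed or not, the summed intensity was 743 and 758 in old wild type, against 747 and 734 in young wild type.

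Cxcl14 was lower in old wild type, opposite in sign to both transgenic lines. Its intensity was 421 and 487 in old wild type, against 511 and 557 in young wild type, a log2 ratio of -0.24 ± 0.074 (limma adjusted p = 0.325). Both old values were below both young values, although red was well above background on array 2 alone, where the ratio was -0.19. Cxcl17 had 156 and 178 in old wild type, against 201 and 226, with log2 ratios of -0.37 and -0.34 (mean -0.36 ± 0.12, limma adjusted p = 0.359), and its red signal was likewise well above background on array 2 alone. With the log ratios of the Feature Extraction software Cxcl17 had -2.14 and -0.58. Ccl21c had 0.16 and 0.53. Ccl6 rested on array 1 alone at -0.11, because its spot on array 2 was flagged as an outlier and left out, and red was not well above background on array 1. Cx3cl1 likewise rested on array 1, at -0.25. With the flagged spots kept, old array 2 had 1.15 for Ccl6 and 0.81 for Cx3cl1, so that both means turned above 0, to 0.52 ± 0.27 and 0.28 ± 0.25.

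In old wild type, 17 members were well above background in young wild type on both arrays and in old wild type on neither, so the old value is at most a bound. Over all probes, 7.82% and 33.0% were well above background in red on old arrays 1 and 2, against 60.3% and 66.0% in green. The share of all probes with the pattern of these 17 members was not counted. For Ccl19 the bound came to 1.11-fold lower on the probe used (114 in old wild type, against 136 in young wild type, limma adjusted p = 0.311). It is not taken as a measured fall, because the lowest red signal of a detected probe on old array 1 was itself 136. The other tested probe of Ccl19 had a log2 ratio of -0.060. Pf4 was above young wild type on 1 old array and below it on the other, and is given no bound. For the other 15, among them Ccl2, Ccl8, Cxcl1, Cxcl10, Cxcl15, Ccr2, Ccr6, Ccr9, Cxcr3 and Cxcr4, no fold is given, and this holds for Ccr2 and Ccl8, although they passed the unadjusted threshold. Luminal markers were higher in old wild type for 11 of 12 genes with a median of 0.53 (0.65 on array 2), and their summed intensity was 1974000 and 354100 in old wild type, against 36410 and 115600 in young wild type. On old array 1 that sum was mostly Sbp (1293000) and Spink1 (639900), 2 probes with log2 ratios of 8.87 and 7.05 there. On that array the spots of Pbsn, Krt18, Msmb and Defb50 were left out as outliers. Sbp (111700) and Spink1 (130000) also made up most of the sum on old array 2. Their log2 ratios were nearly equal on every array but old array 1, for instance 2.49 for both on old array 2. The part of the processing of very bright spots in these values was not tested. Of the fibroblast markers 6 of 8 were lower, with a median of -0.20 (-0.31 on array 2) and summed intensities of 9814 and 4747 in old wild type against 12260 and 6860 in young wild type. Their part in the Cxcl14 and Ccl19 values was not tested.

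**Figure D4:**
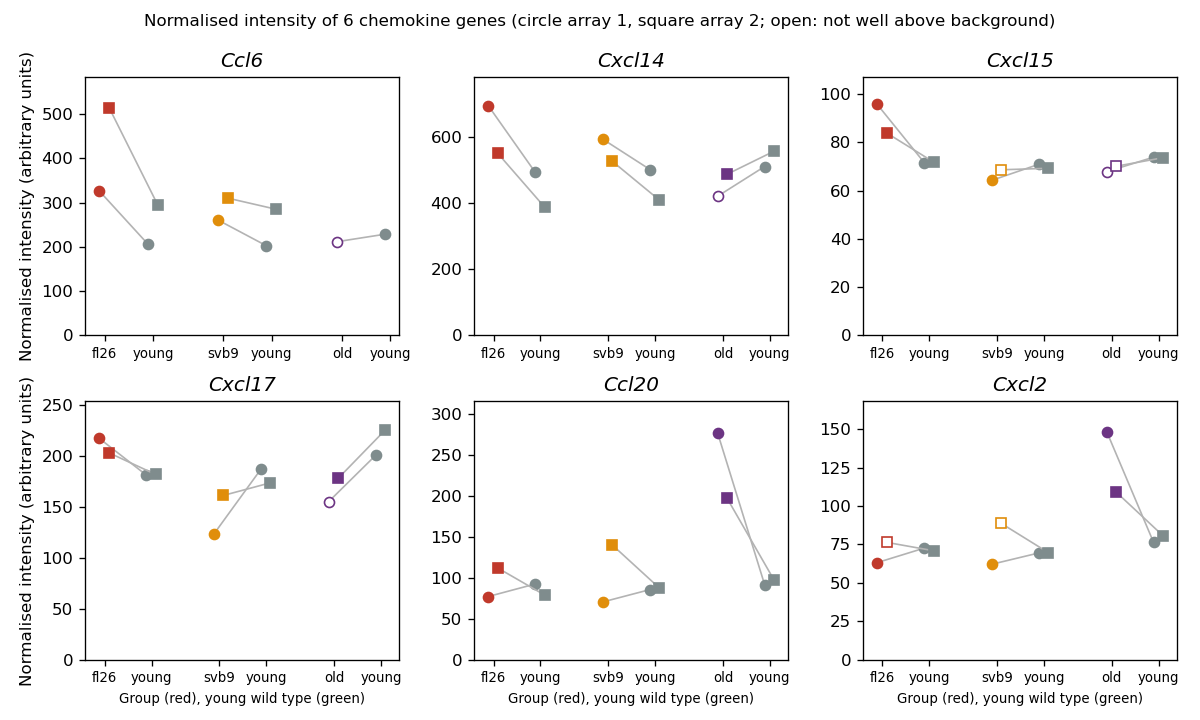
Normalised intensity (arbitrary units, axes from 0) of 6 chemokine genes in each red group and, to its right in grey, in the young wild type RNA of the same array, with circles for array 1, squares for array 2, lines joining the channels of an array and open symbols for red not well above background. Ccl6 has no point on old array 2, Cxcl14 lies above young wild type in fl26 and svb9 and below it in old wild type, and Ccl20 and Cxcl2 stand highest in old wild type.

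In differences between the red groups a dye effect equal on all arrays cancels, but one that varies with the red signal of an array does not. Of 38 members, 0 passed the limma test in any of the 3, against 0% of probes in each. In fl26 minus svb9, at an unadjusted p under 0.05, Ccl6, Cxcl15 and Cxcl17 were higher in fl26 (7.89% of members, against 1.15% of all probes) and 0 were lower (against 1.03%). On the fl26 side lay 31 of 38 members and 52% of all probes. Cxcl17 showed the largest difference, 0.56 ± 0.17 (1.48-fold), since its log2 ratios were 0.26 and 0.16 in fl26, against -0.60 and -0.11 in svb9. Ccl6 differed by 0.49 ± 0.14 and Cxcl15 by 0.40 ± 0.12, and all 3 genes had both fl26 arrays above both svb9 arrays. With the flagged spot of old array 2 kept, the Ccl6 difference was 0.49 ± 0.39. The red signal of Cxcl15 was well above background on 3 of the 6 arrays, with both fl26 arrays but not both svb9 arrays among them. Within the feature extraction date that array 1 of both lines share, the differences were 0.86 for Cxcl17, 0.30 for Ccl6, 0.56 for Cxcl15 and 0.25 for Cxcl14. Limma's adjusted p was 1 for each of Cxcl17, Ccl6 and Cxcl15. Ccl21c (0.36) and Cxcl12 (0.29, but 0.063 on its other probe) followed. On the same side lay all 4 basal epithelial markers (median 0.34), all 8 fibroblast markers (0.20), 12 of 14 macrophage markers (0.15) and all 10 endothelial markers measured (0.10), and their part in these differences was not tested.

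In old wild type minus fl26, at an unadjusted p under 0.05, Ccl20 and Cxcl2 were higher in old wild type (5.26% of members, against 4.36% of all probes) and Ccl6, Ccl19, Cxcl14, Cxcl15 and Cxcl17 were lower (13.2%, against 3.38%). Without old array 1, 0 were higher (against 4.23%) and Ccl19, Cxcl14 and Cxcl15 were lower (8.33%, against 2.98%). The Ccl6 difference of -0.84 rests on old array 1 alone and was -0.21 with the flagged spot of array 2 kept, and the red signal of Ccl19 and Cxcl15 was well above background on neither old array. Cxcl14 had the smallest adjusted p of the family here, 0.299 by limma, with a difference of -0.74 ± 0.10. Within the extraction date shared by fl26 array 2 and old array 1 it was -0.78, but red of Cxcl14 was not well above background on old array 1. Without old array 1 the Cxcl14 difference was -0.69. Ccl20 differed by 1.18 ± 0.39, and by 1.09 within the date of fl26 array 2 and old array 1. In old wild type minus svb9, Ccl8, Ccl20, Ccl25 and Cxcl2 were higher (10.5% of members, against 3.11%) and Ccl19 and Cxcl14 lower (5.26%, against 1.60%). Of these, Ccl25 had 0.33 on the probe used but -0.037 on its other tested probe. The red signal of Ccl8 and Ccl19 was well above background on neither old array. Without old array 1 those higher were Ccl8 and Ccl21c (5.56%, against 4.03%) and those lower again Ccl19 and Cxcl14 (5.56%, against 2.19%). Ccl20 differed by 1.11 ± 0.39 there, but by 0.34 within the extraction date that svb9 array 2 and old array 2 share, and Cxcl2 by 0.61 ± 0.24, but by 0.090 within it. Cxcl14 differed by -0.54 ± 0.10, and by -0.56 within it.

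With extraction date as a term in the fit, limma called 0 of 38 members in each of the 6 comparisons. Of all probes it called 0.434% for fl26, 0% for svb9 and 0.0398% for the old group, and 0.00718% for fl26 minus svb9, 0.0181% for old wild type minus fl26 and 0% for old wild type minus svb9. The log2 ratio of Ccl20 in old wild type was then 1.02, that of Ccl6 in fl26 0.63 and that of Cxcl14 in fl26 0.53. The replicate block called 0 members in svb9 (0.0431% of probes), in fl26 minus svb9 (0.0359%), in old wild type minus fl26 (0.0905%) and in old wild type minus svb9 (0%).

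Group means of the receptors spanned a narrower range than those of the ligands in both transgenic lines. Over the 12 receptors tested, the median log2 ratio was 0.030 for fl26 and -0.0077 for svb9, and the group means ran from -0.089 to 0.14 for fl26 and from -0.14 to 0.052 for svb9. For the 26 ligands they ran from -0.30 to 0.73 for fl26 and from -0.35 to 0.30 for svb9. With the Feature Extraction log ratios, the receptors at the ends of the fl26 range had 0.54 and 0.93 (Cxcr6) and -0.051 and -0.75 (Ccr4). The ligands at its ends then had 0.76 and 0.93 (Ccl6) and -0.52 and -0.72 (Cxcl10). The part of dim signal, of the processing and of the smaller number of receptors in the narrower range was not tested. In red, 11 and 3 of 18 receptors were well above background on the fl26 arrays, 13 and 1 on the svb9 arrays and 0 on either old array, so no ratio of a receptor is given for the old group. The ligands so detected were 27 and 19 of 36 on the fl26 arrays, 28 and 16 on the svb9 arrays, and 3 and 14 on the old arrays. Ccr6 in svb9 was the 1 receptor that met the terms for a named gene, at 0.0025 and 0.079, where both channels were detected on both arrays.

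Several ligands that were detected had receptors that were not. Ccr1, a receptor of Ccl6 and Ccl5, and Cxcr5, the receptor of Cxcl13, were above background nowhere, and Ccr7, the receptor of Ccl19 and Ccl21c, was so in red on 1 array and in green on 2. Cxcr4, the receptor of Cxcl12, was detected in green on all 6 arrays and in red on 1, with group means of -0.044 for fl26 and -0.0085 for svb9. Cxcr6, which binds the transmembrane ligand Cxcl16, had 0.053 and 0.22 in fl26, and 0.047 and -0.058 in svb9. Ccr2 had 0.099 and -0.092 in fl26, -0.049 and -0.23 in svb9, and Cx3cr1, the receptor of Cx3cl1, had group means of -0.041 in fl26 and -0.054 in svb9.

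Of the 8 genes with 2 or more tested probes, 4 had probes of opposite sign for fl26, 3 for svb9 and 4 for the old group. Ccl25 in old wild type had 0.16 on the probe used and -0.059 on another, and Cxcl12 in fl26 had 0.23 on the probe used and 0.14 on its other probe. For Ccl19 in old wild type the probe used had -0.25 and the other -0.060. They had -0.39 and -0.25 in old wild type minus fl26, and -0.37 and -0.15 in old wild type minus svb9. Ccl6, Ccl20, Cxcl2, Cxcl14, Cxcl15 and Cxcl17 have 1 probe each.

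Around the family, genes of chemokine signalling, scavenging and presentation (37 of 42 listed genes measured) and inducers of chemokines (31 of 38) were set beside it. In every comparison 0 of either list passed the limma test. In fl26, 22 of 37 signalling genes and 16 of 31 inducers were above 0, with medians of 0.014 and 1e-04, in svb9 17 and 13, and in old wild type 15 and 15. The decoy receptor Ackr3, which scavenges Cxcl12, had 0.15 and 0.87 in fl26 and -0.39 and 0.75 in svb9, so its arrays differed more than its groups. Rarres2, the leukocyte attractant chemerin, had 0.67 and 0.47 in fl26 (mean 0.57 ± 0.088, limma adjusted p = 0.175), and 0.20 and 0.26 in svb9. Sdc4, a heparan sulphate proteoglycan that binds chemokines, had -0.53 and -0.78 in fl26, and Gnb2, a G protein subunit downstream of the receptors, had -0.41 and -0.65. Among the inducers, Cebpb, a transcription factor of inflammatory genes, had 0.49 and 0.66 in fl26 (mean 0.57 ± 0.095, limma adjusted p = 0.232). Stat3, which carries cytokine signals, had -0.19 and -0.65 in fl26 and -0.080 and -0.78 in svb9. Nfkb1, which encodes a subunit of NF-kappaB, had a mean of 0.13 for fl26, 0.0058 for svb9 and 0.080 for the old group. Its arrays had opposite signs in fl26 (0.38 and -0.11) and in svb9 (0.030 and -0.018), and the old arrays had 0.024 and 0.14. Irf1, an interferon-induced factor, had -0.097 and -0.55 in old wild type, and Rac1, a GTPase of cell migration, had 0.71 and 0.033.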

How the data were processed

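RNA of mouse ventral prostate was hybridised to 6 two-colour arrays. Agilent Feature Extraction (A.7.5.1) read the spots, per the file headers. The deposited files hold, per channel, the spot mean intensity and the local background median, not normalised. They also hold deposited log10 ratios (red over green), background-subtracted and dye-normalised by that software per the file headers, and the deposited series table matches them to within 0.005 on the log10 scale.

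In R 4.3.3 with limma 3.58.1, background was corrected by normexp (offset 50), each array was normalised by loess, control spots (2256 of 43790) and outlier spots were left out, and spots of a probe were averaged. The log2 ratios of 27860 probes, which had 1 channel well above background on both arrays of some group, entered a limma model of 3 group means over all 6 arrays, tested 2-sided with Benjamini-Hochberg adjustment over all probes and a threshold of 0.05. The spread is pooled over the groups, so that a lone array is taken to vary like the other groups, and 2 arrays per group limit the precision. Intensities are after loess and Aquantile. A bound sets the brighter mean against, per array, the higher of the dim probe's signal and the lowest signal of a probe well above background, and dye bias was not balanced by swaps.

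Where a gene has several probes, the probe of highest mean intensity was used, and 50 of the 54 genes were named through an accession in the RefSeq table. Named genes were Cxcl15 and Cxcl17, members detected in both channels on all arrays, and the members and list genes with the largest values of one sign on both arrays of a group, with both channels well above background. Others were chosen after their values were seen. Values of 1 member are not reported here. The members and lists were chosen with earlier results of these data known. Same-numbered arrays deviated together (r = 0.61 between fl26 and svb9, 0.33 between fl26 and the old group, 0.17 between svb9 and the old group), so calls made with the replicate block are printed. With 2 arrays a group, each r rests on a single difference per probe and group. The arrays fall on 3 feature extraction dates. Correlations between arrays ran from -0.03 to 0.68. The code was tested on simulated data.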

Additional observations from a re-analysis of the deposited data

How the results depend on the processing

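Of 578 values of 34 gene results under 17 alternative settings, 562 kept direction and side of the threshold, 4 passed it and 12 changed sign. Members called were 0 except under the replicate block (2 in fl26, Ccl6 and Cxcl14; 1 in old wild type, Ccl20, adjusted p = 0.0330) and under a variance trend (1 in old wild type, Ccl20, adjusted p = 0.0468); the block changed no other call. Over all probes, fl26 calls were 14, but 1001 with the block, 121 with date as a term, 63 with the trend, 6 with the Feature Extraction log ratios, 2 without background correction, 0 with median centring and 0 to 1 on leaving out an array; old calls were 0, but 1211 with the block, 176 with the trend, 29 with the strict filter, 32 with outlier spots kept (added after seeing the data), 11 with date, 4 averaging probes and 2 without either fl26 array. Fl26 minus svb9, old wild type minus fl26 and old wild type minus svb9 had 0 calls, and at most 10, 25 and 0 under any alternative.

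Ccl20 in old wild type ranged from 0.58 to 3.19 (adjusted p 0.0330 to 0.507) and Cxcl2 from 0.39 to 2.45 (adjusted p 0.0595 to 0.455); on old arrays 1 and 2 Ccl20 had 4.32 and 2.05 with the Feature Extraction ratios and 0.58 and 0.59 with median centring. Cxcl15 ranged from 0.22 to 0.74 in fl26 and from 0.30 to 1.08 in fl26 minus svb9, and Cxcl17 from -1.36 to -0.30 in old wild type. Median centring moved the median of all probes to -0.38 in old wild type, 0.097 in fl26, 0.092 in fl26 minus svb9, -0.52 in old wild type minus fl26 and -0.42 in old wild type minus svb9, so the members' medians in the old comparisons then lay above that of all probes. Adjusted p ranged from 0.0223 to 0.9998 for Ccl6 and from 0.0214 to 0.9998 for Cxcl14 in fl26.

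Signs changed without background correction for Ccl21c in svb9 (-0.020) and for Cxcl15 (0.0285) and Cxcl17 (0.0288) in old wild type minus svb9; with median centring for Ccl5 in fl26 (0.071) and Cxcl15 in old wild type minus svb9 (0.096); with Feature Extraction ratios for that Cxcl15 difference (0.19); and with date as a term for Ccl21c in svb9 (-0.082) and that Cxcl15 difference (0.032). The cause was not tested. Leaving out 1 array (svb9 array 2 or old array 1) turned the old wild type minus svb9 differences, which ranged from -0.084 to 0.045 for Cxcl15 and from -0.25 to 0.24 for Cxcl17 over the arrays left out.

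The members' median moved to -0.016 in old wild type without background correction. With median centring it was 0.14 in fl26, -0.15 in old wild type, 0.13 in fl26 minus svb9, -0.38 in old wild type minus fl26 and -0.21 in old wild type minus svb9, and with Feature Extraction ratios 0.22, -0.19, 0.19, -0.32 and -0.14 in the same order. It was -0.13 in old wild type minus fl26 with the strict filter, and -0.0255 in svb9, -0.0135 in old wild type and 0.028 in old wild type minus svb9 with date. Leaving out an array gave medians from 0.029 (without fl26 array 1) to 0.086 in fl26, -0.067 to -0.034 (without old array 1) in old wild type, -0.13 to -0.074 in old wild type minus fl26 and -0.070 (without svb9 array 2) to -0.0099 in old wild type minus svb9. On old array 1 red was well above background for 3 members, which limits the old values of the others.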
